A study of Homo sapiens with 2 samples.

Results

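MBD2, a reader of methylated CpG dinucleotides, was knocked down in TFK1 cells, an established human cholangiocarcinoma cell line. The ligand, receptor, antagonist and feedback genes of Wnt signaling were then examined. They were chosen by name alone: 19 Wnt ligands (WNT), 10 Frizzled receptors (FZD), the co-receptors LRP5 and LRP6, the receptor kinases ROR1 and ROR2, the receptors LGR4, LGR5 and LGR6, 5 decoys (SFRP genes and WIF1), 4 DKK genes and the 4 feedback genes AXIN2, NKD1, RNF43 and ZNRF3. These are 49 of the 56638 genes in the deposited tables. RNA was sequenced from cells with a hairpin RNA against MBD2 (shMBD2) and from cells with the negative control hairpin (shNC), with 1 library per group and no other treatment. In the methods, hairpins were delivered by lentivirus and infected cells were selected with a drug, so both libraries come from infected, selected pools of a single line, and the title of the knockdown library does not name which MBD2 hairpin it carries. The deposited counts summed to 14728814 reads in shMBD2 and 14467406 in shNC.

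Wnt proteins are secreted, lipid-modified ligands that bind Frizzled receptors. With LRP5 or LRP6, the bound receptor blocks the destruction of beta-catenin, which then enters the nucleus and works with TCF/LEF factors, whereas other Wnt signals run through ROR kinases without beta-catenin. SFRP proteins and WIF1 bind the ligands outside the cell, DKK1 blocks LRP5 and LRP6, and the ubiquitin ligases RNF43 and ZNRF3 remove Frizzled from the surface unless R-spondins engage LGR4, LGR5 or LGR6. In the biliary tree, Wnt ligands are known from injury repair and cholangiocarcinoma, and the promoters of several SFRP genes, WIF1 and DKK genes are known as sites of DNA methylation in cancers.

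MBD2 had 365 counts in shMBD2 and 1013 in shNC, a log2FC (log2 of shMBD2 over shNC, on counts scaled with TMM factors) of -1.48 with an interval of -1.66 to -1.31. Each such interval is an exact 95% Clopper-Pearson interval, computed from how the reads of the gene divide over shMBD2 and shNC, and it covers counting error only. With 1 library per group no difference here has a replicate check and no p-value is given. Of the 8 markers of biliary epithelium, KRT8, KRT18 and KRT7, keratins of simple epithelium, were the most abundant, with 3890, 685.9 and 1327 TPM in shNC (a level scaled by transcript length and library size, as deposited). The levels of KRT19 and EPCAM were far below these, at 9.04 and 16.9 TPM in shNC, and CFTR had 6 counts in shMBD2 and 11 in shNC. The markers of hepatocytes, fibroblasts, leukocytes and endothelium had between 0 and 6 counts each per library. Their summed counts in shMBD2 and shNC were 10 and 6 for the 5 hepatocyte markers, 11 and 16 for the 6 fibroblast markers, 0 and 2 for the 5 leukocyte markers and 0 and 1 for the 3 endothelial markers. The biliary markers together summed to 4753 TPM in shMBD2 and 5983 in shNC. All but KRT19 were lower in shMBD2, as were 8963 of all 17545 genes with at least 10 counts, and the interval of CFTR, -2.60 to 0.68, included 0. All 10 NF-kB targets listed had a log2FC above 1, as had 5.48% of all genes, with a median of 4.03. That list was chosen with an earlier result of these data known, so its direction is no separate finding. The part of either difference in the results below was not tested.

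The promoters of 5 of these genes are shown first, because MBD2 binds methylated CpG and because these genes carry the main contrasts among the extracellular antagonists and ligands. DKK1 and SFRP4 were the antagonists with a log2FC below -1, WNT4 was a ligand with a log2FC above 1, and SFRP2 and WIF1 were antagonists with no counts or next to none. Each line gives the 250 bases before the start of the RefSeq transcript (GRCh38.p14), read 5′ to 3′ on the strand of the gene, with CpG dinucleotides in capitals. The stretches lie at chr10:52314031-52314280 on the plus strand (DKK1), and on the minus strand at chr7:37916818-37917067 (SFRP4), chr1:22143098-22143347 (WNT4), chr4:153789084-153789333 (SFRP2) and chr12:65121306-65121555 (WIF1). In GENCODE 29 (GRCh38) the genes SFRP4, WNT4 and WIF1 begin farther upstream, so their stretches lie within the gene there, and that of SFRP2 lies partly within it.
DKK1: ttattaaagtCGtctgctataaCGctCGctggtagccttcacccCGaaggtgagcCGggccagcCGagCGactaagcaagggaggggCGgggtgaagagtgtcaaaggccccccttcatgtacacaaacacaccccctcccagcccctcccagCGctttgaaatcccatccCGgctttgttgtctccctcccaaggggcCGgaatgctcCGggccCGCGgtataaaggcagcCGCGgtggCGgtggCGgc
SFRP4: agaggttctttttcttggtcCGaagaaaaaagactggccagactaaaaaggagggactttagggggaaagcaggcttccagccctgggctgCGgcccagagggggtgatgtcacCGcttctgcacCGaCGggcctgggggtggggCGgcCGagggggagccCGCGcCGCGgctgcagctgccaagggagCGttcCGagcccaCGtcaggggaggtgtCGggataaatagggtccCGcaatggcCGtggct
WNT4: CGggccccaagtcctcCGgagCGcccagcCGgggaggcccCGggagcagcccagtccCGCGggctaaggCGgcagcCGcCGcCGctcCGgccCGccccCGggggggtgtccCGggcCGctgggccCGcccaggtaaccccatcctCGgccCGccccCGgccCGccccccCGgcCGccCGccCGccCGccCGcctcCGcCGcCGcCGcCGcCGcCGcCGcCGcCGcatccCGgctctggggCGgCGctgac
SFRP2: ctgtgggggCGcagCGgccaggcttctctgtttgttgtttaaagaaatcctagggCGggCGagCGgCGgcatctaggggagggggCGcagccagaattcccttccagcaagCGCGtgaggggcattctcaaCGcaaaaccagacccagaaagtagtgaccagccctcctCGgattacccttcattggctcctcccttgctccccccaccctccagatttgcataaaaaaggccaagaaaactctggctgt
WIF1: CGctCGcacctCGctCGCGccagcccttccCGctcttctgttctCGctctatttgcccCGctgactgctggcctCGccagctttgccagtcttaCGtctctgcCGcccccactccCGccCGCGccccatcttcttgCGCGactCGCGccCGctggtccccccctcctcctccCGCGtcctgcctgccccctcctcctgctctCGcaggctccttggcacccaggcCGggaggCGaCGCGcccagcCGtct

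These stretches hold 18 CpG for DKK1, 17 for SFRP4, 40 for WNT4, 11 for SFRP2 and 27 for WIF1. Promoters were found for 32 of the 49 genes, with 38 windows since some genes have several starts. NKD1, AXIN2, ZNRF3, WNT7B and LRP6 were among the genes without an entry. The windows of the Wnt genes had a median of 22 CpG in 250 bases, against 11 over all 35116 windows of the reference. Among them, the 27 windows of genes with at least 10 counts had a median of 19 CpG and a range from 0 to 44, and the 11 windows of genes with fewer counts had a median of 27 and a range from 3 to 38. The 27 windows belong to 21 genes and the 11 to 11 genes. Genes with several starts, such as LGR6 and RNF43, thus lie only in the first group, and the medians are over windows and not over genes. The counts of CpG therefore overlapped between transcribed and nearly silent Wnt genes. The letters CTTTGA, the core that TCF/LEF factors bind, were searched on both strands. They occurred in 1 of the 38 windows, that of DKK1, against 11.2% of all windows. The 38 windows had a median GC content of 67%, against 58% over all windows, and its part in that difference was not tested. In DKK1 the letters begin 2 times, at position -149 as the reverse complement TCAAAG and at position -95 as CTTTGA, counted with -1 as the last base before the start. A match of letters is a description and not a measured site, and DNA methylation and MBD2 binding at these promoters were not measured here.

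Among all 49 genes, 35 had at least 10 counts summed over both libraries and were given a log2FC. The other 14 had between 0 and 4 counts in each library: the ligands WNT1, WNT2, WNT3A, WNT7A, WNT8A, WNT8B, WNT9B, WNT10A and WNT16, the receptor FZD10, and the antagonists SFRP2, WIF1, DKK2 and DKK4. Of these, 6 had no counts in either library (WNT7A, WNT8A, WNT9B, WNT10A, SFRP2 and DKK2). A count of 0 allows up to 3 counts, which corresponds to 0.205 CPM (counts scaled to library size) in shMBD2 and 0.206 in shNC, so expression below that was not detectable at this depth. The same genes were thus at or near the floor in both libraries, and WIF1, with 0 counts in shMBD2 and 4 in shNC, had the largest count among them.

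A log2FC above 1 was found for 6 of the 35 genes (NKD1, WNT4, ROR2, WNT5B, WNT11 and SFRP5), where 5.48% of all 17545 genes with at least 10 counts lay above 1. A log2FC below -1 was found for 2 of the 35 (DKK1 and SFRP4), where 5.07% of all genes lay below -1. At the smaller lines of 0.5 and -0.5, 8 of the 35 lay above (the 6 and FZD7 and LGR5), with 12.8% of all genes, and 4 lay below (DKK1, SFRP4, FZD8 and WNT6), with 13.2% of all genes. Of the 8 genes past 1 or -1, 5 had fewer than 100 counts in all. Among these, WNT5B, WNT11 and SFRP5 reached the 10 counts mainly through shMBD2, so their log2FC cannot be taken apart from the filter. Among genes with at least 100 counts, 25 were Wnt genes. Of these, 1 lay above 1 (NKD1), with 1.78% of all genes, and 2 lay below -1 (DKK1 and SFRP4), with 1.06% of all genes. Likewise 2 of the 25 lay above 0.5 (NKD1 and FZD7), with 6.37% of all genes, and 3 lay below -0.5 (DKK1, SFRP4 and FZD8), with 5.95%. By a further description added after the values were seen, the whole counting interval lay above 1 for NKD1, as for 1.37% of all genes, and below -1 for DKK1, as for 0.581%. The median log2FC of the 35 genes was 0.040, against -0.0082 over all genes, and its sign turned with the minimum count, to -0.113 with at least 100 counts and -0.0088 with at least 1.

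**Figure D1:**
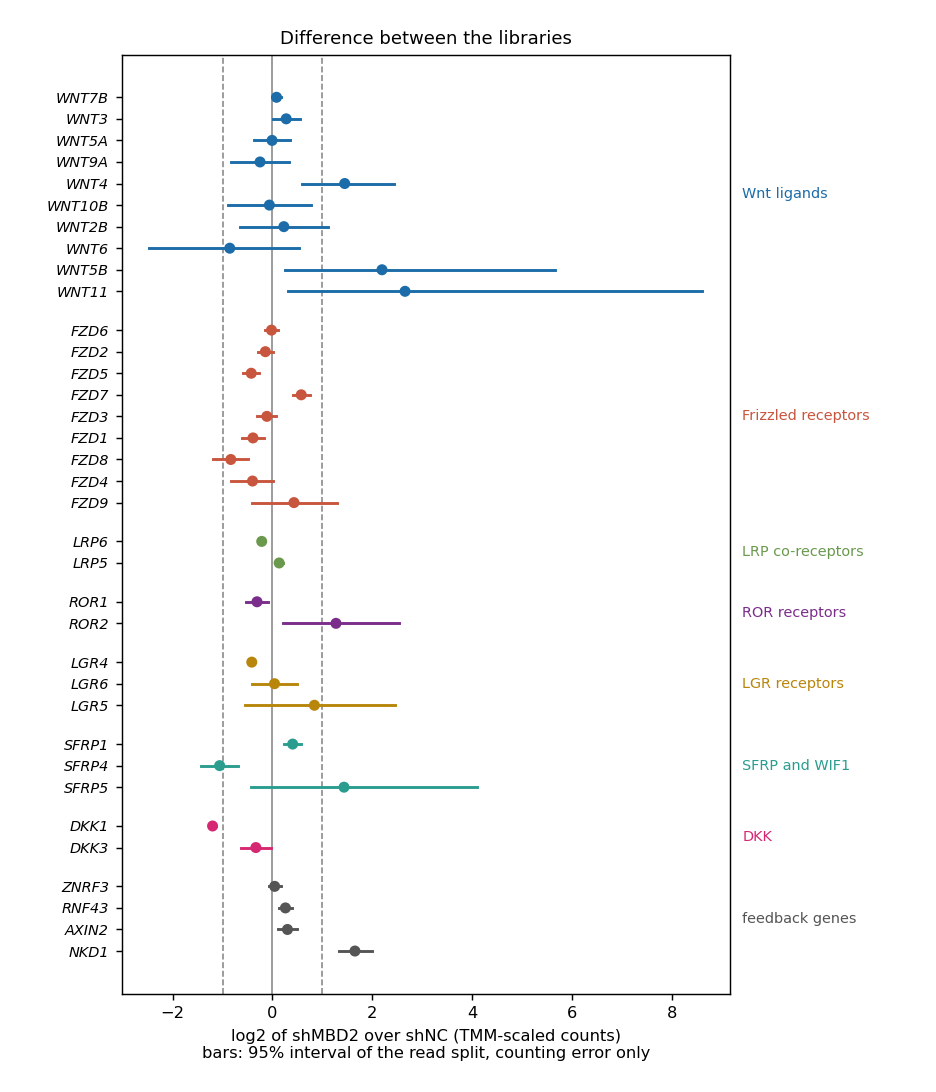
Log2 of shMBD2 over shNC (x axis) for the 35 Wnt genes with at least 10 counts, grouped by class, with the 95% interval of the read split (bars, counting error only) and dashed lines at 1 and -1. NKD1 at 1.65 and DKK1 at -1.20 are the genes whose whole interval lies past a line, and the widest intervals belong to ligands with few reads such as WNT11.

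Among the antagonists, DKK1, the secreted inhibitor of LRP5 and LRP6, had the highest level of the 49 genes in both libraries. It had 3207 counts in shMBD2 and 7326 in shNC, or 313 and 734 TPM. Its level ranked 123 from the top of all 56638 genes in shNC and 345 in shMBD2. The log2FC of DKK1 was -1.20 (interval -1.26 to -1.14), so its scaled count in shMBD2 was 43.5% of that in shNC. Among the 361 genes with as many counts or more, none had a lower log2FC. DKK1 (ENSG00000107984) spans chr10:52314296-52318042 on the plus strand of GRCh38 in GENCODE 29.

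DKK3, a more distant member of the family, had 166 counts in shMBD2 and 208 in shNC, with a log2FC of -0.33 (interval -0.64 to -0.033). It was thus also lower in shMBD2, with 10.96 against 14.1 TPM, though its interval stayed within 1 and -1. DKK2 and DKK4 were not detected above 1 count. The summed level of the DKK genes was 324.5 TPM in shMBD2 and 748.5 TPM in shNC.

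The SFRP genes, decoys with a Frizzled-like domain that bind Wnt ligands, did not move together. SFRP4 had 92 counts in shMBD2 and 191 in shNC, a log2FC of -1.06 (interval -1.44 to -0.70). SFRP1 had 654 counts in shMBD2 and 491 in shNC, a log2FC of 0.40 (interval 0.23 to 0.58). The libraries therefore differed in opposite directions for these SFRP genes, and the summed TPM of SFRP genes and WIF1 was 31.8 in both. SFRP5 had 9 counts in shMBD2 and 3 in shNC, a log2FC of 1.43 whose interval from -0.43 to 4.10 includes 0. SFRP4 overlaps EPDR1 on the other strand, which had 1927 counts in shMBD2 and 2312 in shNC. The sources used here do not say whether counting used strand, and without it the reads of SFRP4 and EPDR1 in shared exons cannot be told apart.

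All secreted antagonists together (SFRP genes, WIF1 and DKK genes) summed to 356 TPM in shMBD2 and 780.3 TPM in shNC. DKK1 made up 88.0% of that sum in shMBD2 and 94.1% in shNC. Without DKK1 the sums were 42.9 and 45.9 TPM, so nearly all of the difference in summed antagonist level was that of DKK1.

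Among the feedback genes, which beta-catenin signaling itself induces in many tissues, NKD1 stood apart. NKD1, a binding partner of Dishevelled that restrains the pathway, had 330 counts in shMBD2 and 104 in shNC, which correspond to 12.6 and 4.06 TPM. The log2FC of NKD1 was 1.65 with an interval of 1.33 to 1.99, a 3.14-fold higher scaled count. Of the 8754 genes with at least as many counts, 36 had a log2FC as high as that of NKD1 or higher, NKD1 included. NKD1 (ENSG00000140807) spans chr16:50548330-50649249 on the plus strand of GRCh38 in GENCODE 29.

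The other feedback genes differed much less. AXIN2, a scaffold of the beta-catenin destruction complex and a common reporter of the pathway, had 555 counts in shMBD2 and 448 in shNC, with a log2FC of 0.30 (interval 0.12 to 0.48). RNF43 had 1037 and 861 counts, a log2FC of 0.26 (interval 0.13 to 0.39). ZNRF3, the close relative of RNF43, had 1122 counts in shMBD2 and 1082 in shNC, with a log2FC of 0.043 (interval -0.078 to 0.17). All 4 feedback genes thus had a log2FC above 0, with a median of 0.28, while only the interval of ZNRF3 included 0. Of all 17545 genes with at least 10 counts, 8582 had a log2FC above 0 and 3450 an interval wholly above 0. RNF43 overlaps SUPT4H1, a gene on its own strand with 544 and 499 counts.

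**Figure D2:**
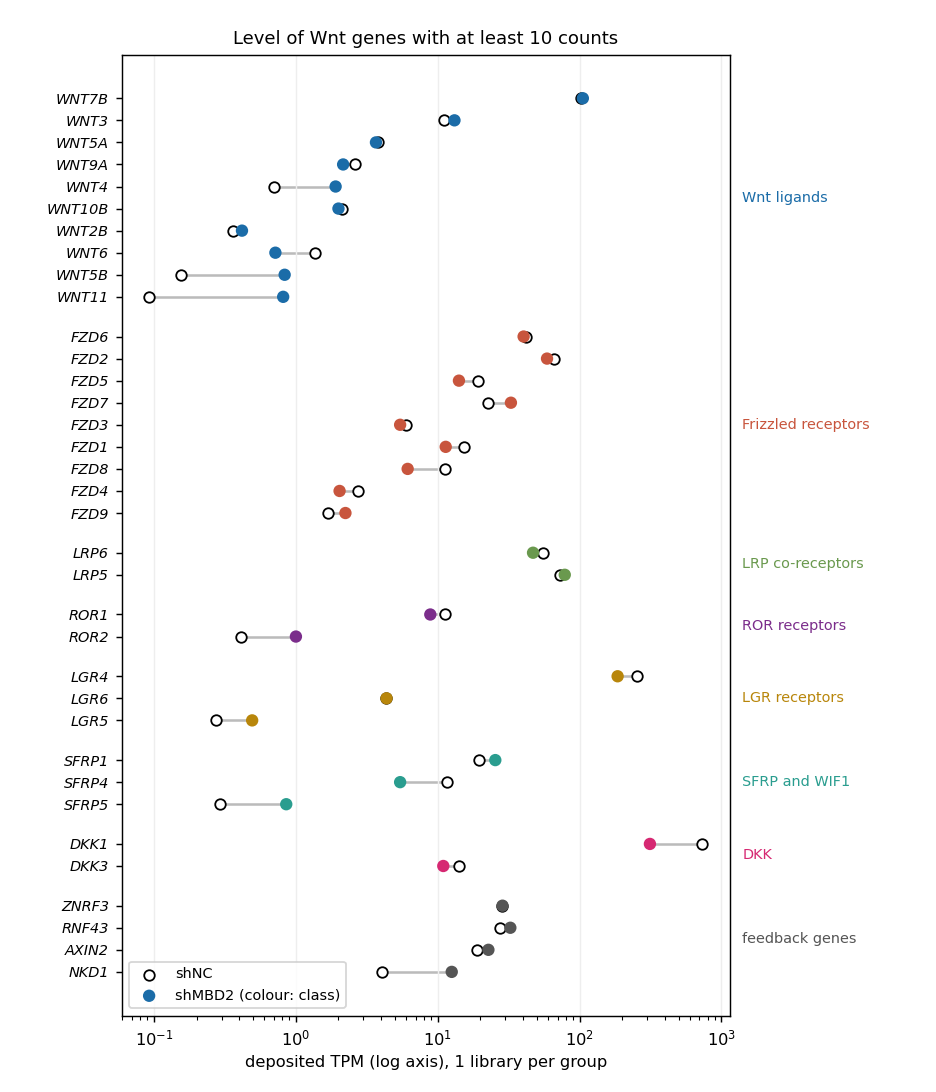
Deposited TPM (x axis, log scale) of the 35 Wnt genes with at least 10 counts in shNC (open circles) and shMBD2 (filled circles, colored by class), joined by a line for each gene. DKK1 lies farthest to the right, at 734 TPM in shNC and 313 in shMBD2, and NKD1, WNT4, WNT5B, WNT11, SFRP5 and ROR2 show the longest lines toward higher levels in shMBD2.

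Among the ligands, WNT7B, an epithelial Wnt ligand, made up most of the expressed mRNA and was nearly level between the libraries. It had 2365 counts in shMBD2 and 2223 in shNC, or 105.5 and 101.8 TPM, with a log2FC of 0.080 (interval -0.0037 to 0.16). WNT7B took 80.2% of the summed TPM of the 19 ligands in shMBD2 and 81.6% in shNC. WNT3, a ligand of the beta-catenin branch, followed with 252 counts in shMBD2 and 207 in shNC, a log2FC of 0.27 (interval 0.0039 to 0.55), at 13.1 and 11.1 TPM.

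WNT5A, the best known ligand of the branch without beta-catenin, had 127 counts in each library, with a log2FC of -0.0088 (interval -0.38 to 0.36). WNT5B, its paralog, had 11 counts in shMBD2 and 2 in shNC, a log2FC of 2.19 with an interval from 0.25 to 5.67. WNT11 had 9 counts in shMBD2 and 1 in shNC, with a log2FC of 2.66 and an interval from 0.31 to 8.62. WNT4 had 42 counts in shMBD2 and 15 in shNC, a log2FC of 1.45 (interval 0.60 to 2.43). The ligands past a log2FC of 1 thus had few reads: WNT4, WNT5B and WNT11 reached 1.91, 0.835 and 0.816 TPM in shMBD2, far below WNT7B. WNT5B overlaps FBXL14 on the other strand, which had 154 counts in each library.

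The remaining ligands with at least 10 counts were close in both libraries or had few reads. WNT9A had 49 counts in shMBD2 and 58 in shNC. WNT10B had 26 and 27 counts, and WNT2B had 26 and 22. WNT2B overlaps ST7L on the other strand, which had 144 counts in shMBD2 and 126 in shNC. WNT6 had 7 counts in shMBD2 and 13 in shNC. The summed TPM of all ligands was 131.6 in shMBD2 and 124.7 in shNC, and the median log2FC of the 10 ligands with at least 10 counts was 0.15. That median includes WNT5B and WNT11, and it was -0.0059 with at least 1 count and 0.036 with at least 100.

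The ligand genes include 4 pairs of neighbors on a chromosome, a position that the choice by name did not use. WNT3 and WNT9B are separated by 46 bases on chromosome 17 (GENCODE 29, GRCh38), WNT6 and WNT10A by 6.1 kb on chromosome 2, WNT10B and WNT1 by 6.7 kb on chromosome 12, and WNT9A and WNT3A by 59.2 kb on chromosome 1. In each pair a single neighbor had more than 1 count in a library: WNT3, WNT6, WNT10B and WNT9A, with the counts given above. WNT9B and WNT10A had 0 counts in both libraries, WNT1 had 0 in shMBD2 and 1 in shNC, and WNT3A had 1 in each. The neighbor with next to no counts was the same in shMBD2 as in shNC in all 4 pairs.

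Of the 10 Frizzled receptors, 9 had at least 10 counts, with a median log2FC of -0.14, and none lay past 1 or -1. In shNC the order by TPM was FZD2 (66.4), FZD6 (41.7), FZD7 (22.5), FZD5 (19.4), FZD1 (15.3), FZD8 (11.2), FZD3 (6), FZD4 (2.75) and FZD9 (1.69). The order in shMBD2 was the same apart from FZD9, at 2.24 TPM, which passed FZD4, at 2.04 TPM. Whether neighbors in this order differ beyond the spread between cultures was not measured.

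FZD7, a receptor linked to beta-catenin signaling in epithelial cancers, was the clearest higher Frizzled, with 723 counts in shMBD2 and 482 in shNC and a log2FC of 0.58 (interval 0.41 to 0.75). FZD8 lay farthest in the other direction, with 112 counts in shMBD2 and 199 in shNC and a log2FC of -0.84 (interval -1.18 to -0.50). FZD5 had 542 and 724 counts, a log2FC of -0.43 (interval -0.59 to -0.26). FZD1 had 283 and 369 counts, a log2FC of -0.39 (interval -0.62 to -0.16). FZD7, FZD1 and FZD2 form a subfamily, yet the first was higher in shMBD2 and FZD1 lower, while FZD2 lay close to level.

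FZD2 had 669 counts in shMBD2 and 734 in shNC, a log2FC of -0.14 (interval -0.30 to 0.010). FZD6, known for restraining beta-catenin signaling, had 874 and 881 counts, with a log2FC of -0.020 (interval -0.16 to 0.12). FZD3 had 427 and 459 counts, a log2FC of -0.11 (interval -0.31 to 0.080). FZD4, the receptor of norrin as well as Wnt, had 86 and 113 counts, a log2FC of -0.40 (interval -0.82 to 0.015), and FZD9 had 30 and 22 counts. FZD4 overlaps PRSS23 on the other strand, which had 6327 counts in shMBD2 and 7672 in shNC. The Frizzled genes together summed to 173.6 TPM in shMBD2 and 187.0 TPM in shNC.

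The co-receptors of the beta-catenin branch were both well expressed. LRP5 had 2321 counts in shMBD2 and 2103 in shNC, a log2FC of 0.13 (interval 0.048 to 0.22). LRP6 had 2694 counts in shMBD2 and 3110 in shNC, a log2FC of -0.22 (interval -0.29 to -0.14). The pair thus differed in opposite directions by small amounts, and their summed level was 125.7 TPM in shMBD2 and 128.8 in shNC. LRP5L, a partial copy of LRP5 that could share its reads, had 86 and 79 counts.

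The ROR kinases, receptors for WNT5A in the branch without beta-catenin, were expressed at lower levels. ROR1 had 296 counts in shMBD2 and 365 in shNC, a log2FC of -0.31 (interval -0.54 to -0.086). ROR2 had 25 counts in shMBD2 and 10 in shNC, a log2FC of 1.27 (interval 0.20 to 2.53). ROR1 kept the larger level of the pair, at 8.88 TPM in shMBD2 against 1.003 TPM for ROR2.

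LGR4, a receptor for R-spondins, had the highest level of the receptors among the 49 genes, with 5521 counts in shMBD2 and 7318 in shNC, which correspond to 185.5 and 252 TPM. The log2FC of LGR4 was -0.42 with an interval of -0.47 to -0.36, and its scaled count in shMBD2 was 75.0% of that in shNC. LGR4 had 10 genes below it in log2FC among the 264 genes with as many counts or more. LGR6 had 89 counts in shMBD2 and 86 in shNC, and LGR5, a stem cell marker of the intestine, had 13 and 7. LGR4 took 97.5% of the summed LGR level in shMBD2 and 98.2% in shNC. The R-spondin gene RSPO3, named after its values were seen, had 2909 counts in shMBD2 and 2398 in shNC, a log2FC of 0.27 (interval 0.19 to 0.35).

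The rest of the pathway was described with a list of 78 other Wnt genes, of which 65 had at least 10 counts. Of these, 8 had a log2FC above 1 (5.48% of all genes) and 1 below -1 (5.07% of all genes), and the median log2FC was 0.044. Among the genes for secretion and the cell surface, PORCN, the enzyme that adds the lipid to Wnt ligands, had 264 counts in shMBD2 and 128 in shNC (log2FC 1.03). KREMEN2, a receptor for DKK proteins, had 51 and 13 counts (log2FC 1.92), and NOTUM, an enzyme that removes the lipid, had 35 and 14 (log2FC 1.28). VANGL2, a planar polarity protein, had 208 and 99 counts (log2FC 1.06). TSPAN12, a co-receptor for norrin, was on the low side, with 67 and 115 counts (log2FC -0.78).

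In the nucleus, TCF7, a partner of beta-catenin on DNA, had 265 counts in shMBD2 and 123 in shNC, with a log2FC of 1.10 (interval 0.78 to 1.42). TLE2, a corepressor, had 89 and 167 counts, with a log2FC of -0.91 (interval -1.30 to -0.54). None of the 18 intracellular genes, which include CTNNB1, APC, AXIN1 and the Dishevelled genes, lay past 0.5 or -0.5. Their log2FC ranged from -0.40 to 0.36. All 18 had at least 100 counts summed. Of all genes with at least 100 counts, 6.37% lay above 0.5 and 5.95% below -0.5, against 12.8% and 13.2% with at least 10 counts. CTNNB1, which encodes beta-catenin, was named after its values were seen and had 4031 counts in shMBD2 and 3532 in shNC.

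Of the 15 listed target genes with at least 10 counts, 3 lay above 1 (5.48% of all genes) and 1 below -1 (5.07% of all genes). Their median of -0.0082 was the value of 1 gene, SP5, with 6 counts in each library and an interval of -1.91 to 1.89. It therefore says little about the targets as a set. EPHB2, an ephrin receptor, had 1488 counts in shMBD2 and 549 in shNC, a log2FC of 1.43 (interval 1.29 to 1.57), while its relative EPHB3 had 14 and 31 counts and a log2FC of -1.13 (interval -2.18 to -0.20). FOSL1, also a member of the AP-1 factors, had 354 and 144 counts (log2FC 1.29), and GREM1, a BMP antagonist, had 28 and 11 (log2FC 1.30). SOX9, a duct lineage factor that is also among the biliary markers, had 264 and 435 counts (log2FC -0.73). The listed targets therefore differed in both directions, with 7 above 0 and 8 below, SP5 among the latter, where 8582 of all 17545 genes lay above 0. Among the 49 genes, the feedback genes AXIN2, NKD1, RNF43 and ZNRF3 lay above 0, while DKK1, also a known target, was lower in shMBD2.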

How the data were processed

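RNA from TFK1 cells with a shRNA against MBD2 or a negative control shRNA was analyzed, with 1 library each. The authors deposited a table of raw counts and another of TPM. The submitters' processing notes list fastp, HISAT2 2.1.0, featureCounts, DESeq 1.18.1 and GRCh38.p13, and strandedness of counting is not given in the sources used here. Gene positions in the tables differ from GENCODE 29 (GRCh38) for all 49 genes, although the notes list GRCh38.p13. Positions printed here are therefore from GENCODE or RefSeq, while the gene overlaps were found with the deposited positions.

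Lines that named no gene (46) were left out, and repeated rows of a symbol with equal values were merged, giving 56638 genes from 63677 rows. Counts were scaled with the TMM method of edgeR 4.0.16 (R 4.3.3). Log2FC used a prior of 0.5 counts and at least 10 counts summed over both libraries, and 95% Clopper-Pearson intervals were from scipy 1.17.1. The calculation was tested on simulated counts. Named were all genes of the set with at least 10 counts, log2FC being given with 100 counts in the higher library or past 1 or -1, and, of the other pathway genes, those past 1 or -1 and the 3 highest and 3 lowest of those reaching 100 counts in either library. Genes and lists were chosen with earlier results of these data known. Alternatives were DESeq2 1.42.0 size factors, total counts, upper-quartile factors, TPM with a pseudocount of 0.1 or 1, priors of 2 and 0.1, and minimums of 1 and 100 counts.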

Additional observations from a re-analysis of the deposited data

How the results depend on the processing

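The log2FC of all 35 genes kept its direction or lay at 0, and stayed within its counting interval, under the 7 other scalings, units and prior counts, with DKK1 from -1.23 to -1.19 and NKD1 from 1.42 to 1.66. With log2 of TPM plus 1, 1 gene lay above 1 in place of 6 and 1 below -1 in place of 2. Of all 17545 genes, 374 then lay above 1 in place of 961 and 340 below -1 in place of 890. ROR2, SFRP5, WNT11, WNT4 and WNT5B were between 0.505 and 0.776 and SFRP4 at -0.967, since that pseudocount pulls low genes toward 0. With at least 100 counts, 1 gene lay above 1 and 2 above 0.5 (against 8), where 213 and 763 of all 11972 genes did. The ROR median was then -0.311 in place of 0.48, ROR1 alone being left, and the LGR median -0.187 in place of 0.040. The median of SFRP genes and WIF1 turned from 0.404 to -0.327, both with at least 100 counts and with at least 1. With at least 1 count, 6 of 43 genes lay below -1 and 9 below -0.5 (against 4), where 4303 and 6286 of all 27295 genes did, and the DKK median was -0.333 in place of -0.767. These follow from how many genes were kept. No paired analysis was possible because each group has 1 library. The spread between cultures was not measured, fewer than 100 counts left wide intervals, and differences cannot be told apart from those of a single culture or hairpin.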
